A study of Arabidopsis thaliana with 9 samples.

Results

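The 10 genes described here encode enzymes that carry nitrate to ammonium and on into glutamine, glutamate and asparagine in Arabidopsis thaliana. They are the nitrate reductases NIA1 and NIA2, the nitrite reductase NIR1, the cytosolic glutamine synthetases GLN1;1, GLN1;2, GLN1;3 and GLN1;4, the plastid glutamine synthetase GLN2, the NADH-dependent glutamate synthase GLT1 and the asparagine synthetase ASN1. They were chosen by their place in the pathway, through their loci, out of 28775 loci with counts, with earlier results of these data known. All 10 were among the 19496 genes with enough reads to be tested. mRNA was sequenced from roots of 2-week-old plants in 3 groups of 3 libraries each. The 35S:miR858 plants overexpress miR858, a microRNA known to direct the cutting of MYB mRNAs. The 35S:rMYB83 plants overexpress a form of the secondary wall regulator MYB83 that miR858 does not recognise, and Col-0 is the wild type. All plants grew in long days, and no label names a nitrogen supply, an added treatment or an infection. The viral 35S promoter is active in most tissues, so neither transgene is limited to 1 root cell type. How many independent transgenic lines and how many plants stand behind a library is not stated in the labels, so every p-value reflects only the spread among these libraries.

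Plants take up nitrate and reduce it in the cytosol to nitrite with nitrate reductase, a molybdenum enzyme, and the nitrite is reduced to ammonium in the plastid with nitrite reductase, which carries siroheme and draws electrons from ferredoxin. Glutamine synthetase then binds ammonium to glutamate, and glutamate synthase passes the amide nitrogen of glutamine to an organic acid. In Arabidopsis roots several cytosolic glutamine synthetases with different affinities for ammonium act side by side. The NADH-dependent glutamate synthase is present beside a ferredoxin-dependent form. Asparagine synthetase makes the amide in which nitrogen is moved and stored when carbon is short.

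The libraries held 8409713 to 9461852 gene counts in 35S:miR858, 5313656 to 8678440 in 35S:rMYB83 and 8131026 to 10648857 in Col-0. Levels are given as CPM, read counts scaled by the TMM-adjusted library size. Reads at the locus of the miR858a precursor numbered 120, 200 and 227 in the 35S:miR858 libraries and 0 in the other 6. MYB83 stood at 98.0 to 134 CPM in 35S:rMYB83 against 0.723 to 2.17 CPM in Col-0. In 35S:miR858 its mean was 1.53 CPM, not lower than the Col-0 mean of 1.28 CPM. All 10 root markers were detected in every library. Their sum was 7749.7 to 8676 CPM in 35S:miR858 and 8278 to 10508 CPM in 35S:rMYB83, against 4847 to 6942 CPM in Col-0. Both lines lay above wild type in this sum, but most of it was PYK10. That gene averaged 7151 CPM in 35S:miR858, 8174 CPM in 35S:rMYB83 and 5368 CPM in Col-0, so the sum mainly follows PYK10. The 20 markers of green shoot tissue (light-harvesting and carbon fixation genes) summed to 7997 CPM in 35S:rMYB83 replicate 1 and 4091 CPM in Col-0 replicate 1, against 685 to 2088 CPM in the other 7 libraries, so results that rest on those libraries are also given without them. In whole roots, fewer cells of a type and less RNA per cell cannot be told apart.

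The largest fold changes among the 10 genes were those of cytosolic glutamine synthetases. GLN1;4 and GLN1;1 transcripts fell in both overexpression lines, GLN1;2 and the nitrate reductase NIA2 fell in 35S:miR858, NIR1 rose in both lines, and in 35S:rMYB83 GLT1 rose and GLN1;3 fell. The 35S:rMYB83 calls of NIR1 (adjusted p = 0.0497) and GLN1;3 (adjusted p = 0.0435) were each lost in 10 of 17 alternative analyses, and the NIR1 call in 35S:miR858 in 5. Of the 10 genes, 1 rose, 4 fell and 5 did not pass the test in 35S:miR858 against Col-0 (edgeR quasi-likelihood test, Benjamini-Hochberg adjusted p under 0.05). In that comparison 25.1% of all 19496 tested genes passed, 11.6% as higher and 13.5% as lower. In 35S:rMYB83 against Col-0, 2 rose, 3 fell and 5 did not pass, where 16.4% of all tested genes passed, 6.7% as higher and 9.73% as lower. Between the overexpression lines 2 of the 10 were higher in 35S:rMYB83 than in 35S:miR858, none was lower and 8 did not pass, where 4.05% of all tested genes passed, 2.5% as higher and 1.54% as lower. The median log2 fold change of the 10 genes was -0.29 in 35S:miR858, against -0.02 over all tested genes, and -0.15 in 35S:rMYB83, against 0.01 over all tested genes. Both comparisons with wild type share the 3 Col-0 libraries. Root markers moved in the same comparisons: 6 of the 10 rose and none fell in 35S:miR858 (median log2 fold change 0.45), and 4 rose and none fell in 35S:rMYB83 (median 0.38). Their part in the results for the enzyme genes was not tested. The count for 35S:rMYB83 fell to 3 when replicate 2 or 3 of Col-0, replicate 1 or 2 of 35S:miR858 or replicate 2 of 35S:rMYB83 was left out. The count between the lines fell to 1 without 35S:miR858 replicate 1 or 2 or without 35S:rMYB83 replicate 1 or 2.

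**Figure D1:**
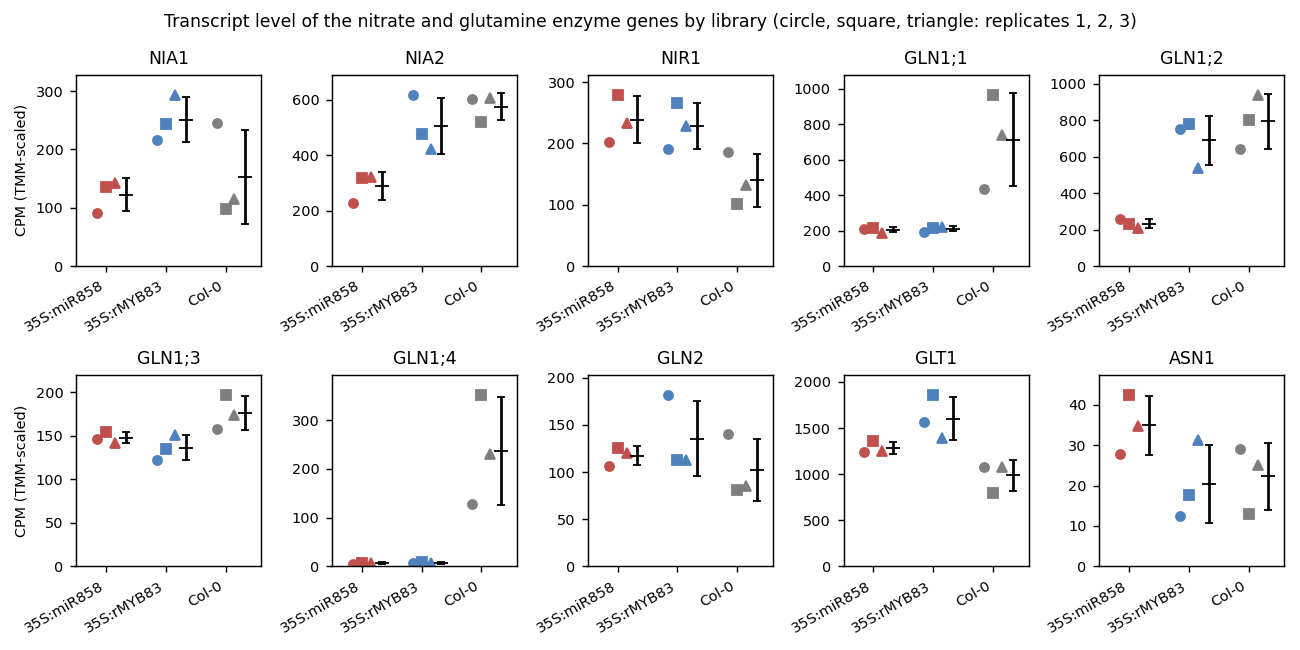
CPM of each gene (vertical axes, from 0) in the 3 libraries of 35S:miR858, 35S:rMYB83 and Col-0; coloured symbols are libraries, and black bars give the mean and SD of 3 libraries. GLN1;4 lies between 3.72 and 8.32 CPM in both overexpression lines and between 128 and 351 CPM in Col-0.

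The groups of libraries did not overlap for 7 of the 10 genes in 35S:miR858 against Col-0 (2 above and 5 below), where 40.6% of all tested genes did not overlap (18.8% above and 21.8% below). They did not overlap for 5 of 10 in 35S:rMYB83 against Col-0 (2 above and 3 below), where the share of all tested genes was 34% (16% above and 17.9% below). For 35S:rMYB83 against 35S:miR858 the number was 4 of 10, all above, where the share was 24.8% (12.3% above and 12.5% below).

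**Figure D2:**
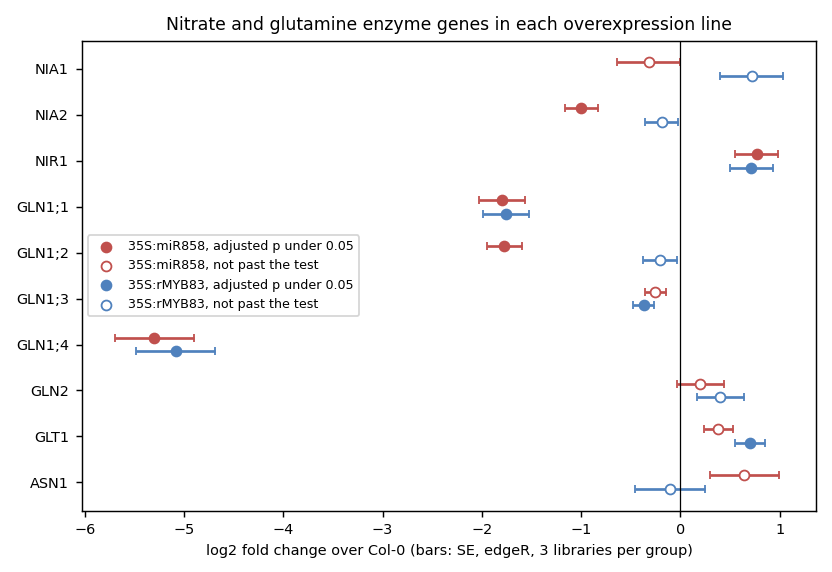
Log2 fold change over Col-0 (horizontal axis) of each gene in 35S:miR858 and 35S:rMYB83, with bars for the SE of the edgeR fit on 3 libraries per group; filled points passed the test at an adjusted p under 0.05. GLN1;1 and GLN1;4 sit left of zero in both lines, and NIA2 and GLN1;2 passed the test in 35S:miR858 and not in 35S:rMYB83.

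The nitrate reductase NIA2 was lower in 35S:miR858 than in both other groups. NIA2 (AT1G37130, chromosome 1 from 14158452 to 14161938, plus strand, 3 exons), which supplies most of the nitrate reductase activity of Arabidopsis seedlings, stood at 229, 317 and 320 CPM in the 35S:miR858 libraries, at 617, 477 and 421 CPM in the 35S:rMYB83 libraries and at 602, 519 and 606 CPM in Col-0. Every 35S:miR858 library lay below every library of the other groups, while 35S:rMYB83 overlapped Col-0. NIA2 fell by 0.997 on the log2 scale in 35S:miR858 against Col-0 (SE 0.17, adjusted p = 0.00233), and in 35S:rMYB83 the log2 difference from Col-0 was -0.19 (SE 0.17, adjusted p = 0.495). In the direct comparison NIA2 was higher in 35S:rMYB83 than in 35S:miR858 by 0.81 (SE 0.17, adjusted p = 0.0281). That last call was lost without 35S:rMYB83 replicate 1, the library with the most green shoot signal (0.64, adjusted p = 0.0879), without both libraries rich in green markers (0.65, adjusted p = 0.067), and without 35S:rMYB83 replicate 2 (0.0747) or 35S:miR858 replicate 1 (0.0691) or 2 (0.08).

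NIA1 (AT1G77760, chromosome 1 from 29235721 to 29239484, minus strand, 4 exons), the second nitrate reductase, had 90.2, 135 and 142 CPM in 35S:miR858 roots, 216, 243 and 293 CPM in 35S:rMYB83 and 244, 98.0 and 115 CPM in Col-0. Col-0 replicate 1 lay within the range of 35S:rMYB83, and the other 2 Col-0 libraries lay within that of 35S:miR858. None of the comparisons of NIA1 passed: the log2 differences were -0.32 in 35S:miR858 against Col-0 (SE 0.32, adjusted p = 0.508), 0.72 in 35S:rMYB83 against Col-0 (SE 0.32, adjusted p = 0.157) and 1.04 in 35S:rMYB83 against 35S:miR858 (SE 0.32, adjusted p = 0.112). Without Col-0 replicate 1, NIA1 was higher in 35S:rMYB83 than in Col-0 by 1.24 (adjusted p = 0.0036), and the value for 35S:miR858 against Col-0 turned to 0.20 (adjusted p = 0.498). Only 2 of 17 alternatives called NIA1 in 35S:rMYB83 against Col-0. With the green marker sum as a covariate it was 0.67 (adjusted p = 0.132). Per kilobase of exon, NIA1 made up 29.9 ± 1.23% of the summed nitrate reductase transcripts in 35S:miR858, 33.9 ± 7.58% in 35S:rMYB83 and 20.5 ± 7.57% in Col-0 (SD, n = 3 each). The summed level of both genes was 129 ± 25.0 CPM per kilobase in 35S:miR858, 237 ± 20.9 in 35S:rMYB83 and 228 ± 36.2 in Col-0 (SD, n = 3 each). The SD ranges of 35S:rMYB83 and Col-0 overlapped for this sum, and that of 35S:miR858 lay below both.

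NIR1 (AT2G15620, chromosome 2 from 6810395 to 6812941, plus strand, 4 exons) encodes the nitrite reductase of the plastid. It had 202, 279 and 234 CPM in 35S:miR858 roots, 192, 267 and 229 CPM in 35S:rMYB83 and 186, 100.4 and 133 CPM in Col-0. All libraries of both lines lay above all Col-0 libraries, but the lowest of each line was close to Col-0 replicate 1. NIR1 rose by 0.77 in 35S:miR858 (SE 0.22, adjusted p = 0.0263) and by 0.71 in 35S:rMYB83 (SE 0.22, adjusted p = 0.0497). In 35S:miR858 the call was lost when counts were scaled to library totals (0.61, adjusted p = 0.0667) and without replicate 2 of Col-0 (0.58, adjusted p = 0.0725), replicate 3 of Col-0 (adjusted p = 0.0806), replicate 2 of 35S:miR858 (adjusted p = 0.106) or replicate 3 of 35S:miR858 (adjusted p = 0.0673). In 35S:rMYB83 it was lost in 10 of 17 alternatives, at 0.52 without Col-0 replicate 2 (adjusted p = 0.133) and at 0.71 with the replicate number as a block (adjusted p = 0.0743), and it was largest when both libraries rich in green markers were left out (1.1, adjusted p = 0.00457). Between the lines NIR1 differed by -0.06 (SE 0.21, adjusted p = 0.922).

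The molybdenum cofactor and siroheme, which these reductases need, are made by another set of enzymes, and 7 of 7 listed genes of their synthesis were tested. In 35S:miR858, 2 rose and none fell: UPM1, which methylates the siroheme precursor, by 0.62 (SE 0.19, adjusted p = 0.0398), and CNX1, which inserts molybdenum into its cofactor, by 0.33 (SE 0.11, adjusted p = 0.0467). Of all tested genes 25.1% passed in that comparison, 11.6% as higher. The count lay between 0 and 2 over the 17 alternatives, in which UPM1 was lost in 9 and CNX1 in 11. In 35S:rMYB83 none of the 7 passed the edgeR test, 2 had an unadjusted p under 0.05 and DESeq2 called 1. UPM1 stood at 0.62 there (SE 0.19, adjusted p = 0.0537). Of 7 genes that supply reducing power to root plastids, 3 rose and none fell in 35S:miR858, and 2 rose and none fell in 35S:rMYB83, where 16.4% of all tested genes passed, 6.7% as higher. PGD1, a 6-phosphogluconate dehydrogenase of the pentose phosphate pathway, rose by 0.77 in 35S:miR858 (adjusted p = 0.00048) and by 0.56 in 35S:rMYB83 (adjusted p = 0.00409). RFNR1, the root ferredoxin-NADP reductase that feeds electrons to ferredoxin, rose by 0.50 in 35S:miR858 (adjusted p = 0.00444) and by 0.41 in 35S:rMYB83 (adjusted p = 0.0166). The glucose-6-phosphate dehydrogenase G6PD2 rose by 0.44 in 35S:miR858 (adjusted p = 0.0129). The median log2 fold change of the reductant list was 0.13 in 35S:miR858 and 0.36 in 35S:rMYB83, against -0.02 and 0.01 over all tested genes in those comparisons. Its count in 35S:rMYB83 lay between 1 and 5 over the alternatives.

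The 4 cytosolic glutamine synthetases are close relatives, and their reads have to be told apart before their levels can be compared. GLN1;1 and GLN1;2 shared 87.5% of aligned coding bases, and the other pairs among the 4 shared 76.3% to 79.3%. No pair shared a run of 50 identical exon bases. A stretch of 60 coding bases (positions 148 to 207 of the coding sequence in all 4 genes) shows how far reads can separate the genes. It was chosen among 60-base windows that align without gaps in all 4 genes and lie within 1 exon of each. Of these, none had fewer differences between GLN1;1 and GLN1;2, and windows across exon junctions were not searched. The 60 bases are printed from RefSeq's TAIR10.1 on the coding strand, 5′ to 3′, with capitals for bases that differ from GLN1;1. They lie at chr5:14934954-14935013 (minus strand) in GLN1;1, chr1:24657035-24657094 (minus) in GLN1;2, chr3:6097985-6098044 (plus) in GLN1;3 and chr5:5423846-5423905 (minus) in GLN1;4, and GLN1;2 differs at 4 positions, GLN1;3 at 11 and GLN1;4 at 9.
GLN1;1: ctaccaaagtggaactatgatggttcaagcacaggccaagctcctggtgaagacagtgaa
GLN1;2: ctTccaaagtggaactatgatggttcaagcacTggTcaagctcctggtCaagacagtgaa
GLN1;3: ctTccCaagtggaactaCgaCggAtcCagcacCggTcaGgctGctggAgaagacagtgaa
GLN1;4: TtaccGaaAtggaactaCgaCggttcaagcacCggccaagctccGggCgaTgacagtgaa
A read confined to such a stretch could be assigned between GLN1;1 and GLN1;2 by few bases, and the read length is not stated in the labels.

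GLN1;4 (AT5G16570, chromosome 5 from 5421589 to 5424749, minus strand), a high-affinity cytosolic glutamine synthetase, had the largest fold change among the 10 genes in both lines. It had 3.72, 7.30 and 6.99 CPM in 35S:miR858 roots, from 31, 57 and 65 counts, and 6.25, 8.32 and 6.24 CPM in 35S:rMYB83, from 33, 68 and 55 counts. In Col-0 it had 128, 351 and 231 CPM, from 1490, 3879 and 1921 counts. The libraries of both lines lay far below those of wild type, which themselves ranged widely. GLN1;4 fell by 5.30 on the log2 scale in 35S:miR858 (SE 0.40, adjusted p = 3.93e-05), which is 39.4 times lower than in Col-0, and had the 50th lowest fold change of all tested genes. In 35S:rMYB83 it fell by 5.08 (SE 0.40, adjusted p = 8.44e-05), which is 33.9 times lower, at the 24th lowest place. The direct difference between 35S:rMYB83 and 35S:miR858 was 0.21 (SE 0.42, adjusted p = 0.84). Over the 17 alternatives the change ran from -5.60 to -4.90 in 35S:miR858 and from -5.38 to -4.69 in 35S:rMYB83, and the call held in every one.

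GLN1;1 (AT5G37600, chromosome 5 from 14933286 to 14935885, minus strand, 9 exons), the other high-affinity form and one of the surface cell layers of the root, had 211, 216 and 188 CPM in 35S:miR858 roots, 194, 215 and 223 CPM in 35S:rMYB83 and 437, 964 and 738 CPM in Col-0. The lines overlapped each other, and both lay below the lowest Col-0 library. GLN1;1 fell by 1.80 in 35S:miR858 (SE 0.23, adjusted p = 0.000578) and fell by 1.76 in 35S:rMYB83 (SE 0.23, adjusted p = 0.00114). The direct difference between 35S:rMYB83 and 35S:miR858 was 0.04 (SE 0.23, adjusted p = 0.952). Within wild type, both of these synthetase genes were lowest in Col-0 replicate 1, which had more green shoot signal than the other Col-0 libraries. Without that library the fall of GLN1;1 was 2.05 in 35S:miR858 and 2.01 in 35S:rMYB83.

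GLN1;2 (AT1G66200, chromosome 1 from 24655115 to 24657703, minus strand), a low-affinity form of the root vasculature, separated the lines. It had 256, 232 and 209 CPM in 35S:miR858 roots, 753, 779 and 537 CPM in 35S:rMYB83 and 642, 801 and 939 CPM in Col-0. The 35S:miR858 libraries lay below all others, and 35S:rMYB83 overlapped Col-0. GLN1;2 fell by 1.77 in 35S:miR858 against Col-0 (SE 0.18, adjusted p = 0.000146), and its log2 difference in 35S:rMYB83 against Col-0 was -0.20 (SE 0.17, adjusted p = 0.475). In the direct comparison it was higher in 35S:rMYB83 than in 35S:miR858 by 1.57 (SE 0.18, adjusted p = 0.00184), a call that every alternative kept, with a largest adjusted p of 0.0132.

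GLN1;3 (AT3G17820, chromosome 3 from 6097201 to 6099595, plus strand, 9 exons), another low-affinity form, differed little. It had 146, 155 and 142 CPM in 35S:miR858 roots, 122, 135 and 151 CPM in 35S:rMYB83 and 157, 196 and 174 CPM in Col-0. Both lines lay below Col-0 by narrow margins. The log2 difference was -0.25 in 35S:miR858 (SE 0.11, adjusted p = 0.118), and GLN1;3 fell by 0.37 in 35S:rMYB83 (SE 0.11, adjusted p = 0.0435). The 35S:rMYB83 call was lost in 10 of 17 alternatives, at -0.28 without Col-0 replicate 2 (adjusted p = 0.149) and at -0.30 with the green marker sum as a covariate (adjusted p = 0.0553). It was also lost without replicate 3 of Col-0, replicate 1 or 2 of 35S:miR858, or replicate 1 or 2 of 35S:rMYB83. GLN1;5, a further cytosolic form, averaged 0.357 CPM in 35S:miR858 roots, 0.116 CPM in 35S:rMYB83 and 0.253 CPM in Col-0 and was too low to be tested.

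**Figure D3:**
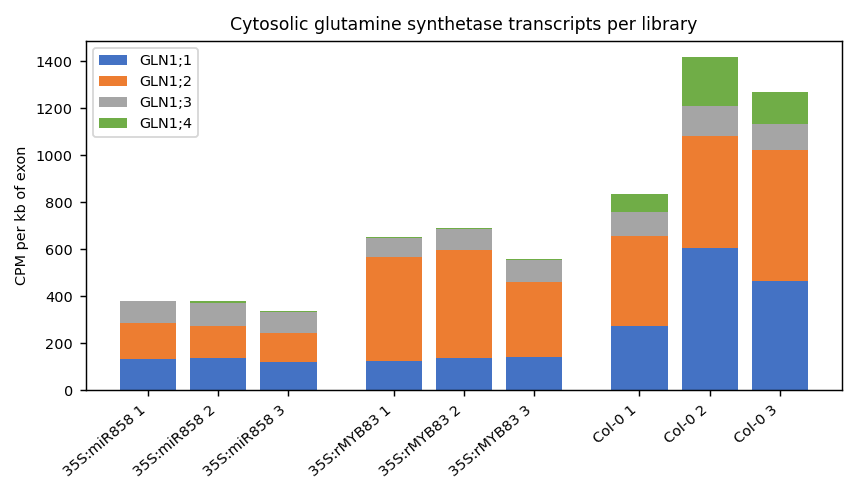
Stacked level of the cytosolic glutamine synthetase genes (CPM per kilobase of exon, from 0) in each library of 35S:miR858, 35S:rMYB83 and Col-0, 1 bar per library and 1 colour per gene. The stacks reach 338 to 381 in 35S:miR858, 560 to 689 in 35S:rMYB83 and 833 to 1417 in Col-0.

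Per kilobase of exon, the 4 cytosolic genes together reached 365 ± 24.0 CPM in 35S:miR858 roots, 633 ± 66.6 in 35S:rMYB83 and 1174 ± 304 in Col-0 (SD, n = 3 each). The 3 groups did not overlap in this sum. The mix of genes differed in part as well. The GLN1;1 and GLN1;2 shares in 35S:miR858 and the GLN1;3 share in 35S:rMYB83 overlapped those in Col-0 within their SD. GLN1;2 made up 37.7 ± 1.86% of the sum in 35S:miR858, 64.2 ± 6.34% in 35S:rMYB83 and 41.0 ± 6.54% in Col-0. GLN1;1 made up 35.3 ± 0.63% in 35S:miR858, 21.2 ± 3.39% in 35S:rMYB83 and 37.5 ± 4.98% in Col-0. The GLN1;3 share was 26.0 ± 1.18% in 35S:miR858, 14.01 ± 2.92% in 35S:rMYB83 and 9.95 ± 1.91% in Col-0. GLN1;4 supplied 0.99 ± 0.35% in 35S:miR858, 0.65 ± 0.08% in 35S:rMYB83 and 11.6 ± 2.86% in Col-0 (SD, n = 3 in every group). These shares are given as descriptions, and their differences were not tested.

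GLN2 (AT5G35630, chromosome 5 from 13830429 to 13833542, plus strand), the plastid glutamine synthetase that is most abundant in leaves, had 106, 126 and 120 CPM in 35S:miR858 roots, 181, 113 and 113 CPM in 35S:rMYB83 and 140, 81.2 and 85.1 CPM in Col-0. Its highest values were in 35S:rMYB83 replicate 1 and Col-0 replicate 1, the libraries with the most green shoot signal, so the values without both are given too. With all libraries the log2 difference was 0.20 in 35S:miR858 (SE 0.24, adjusted p = 0.588) and 0.40 in 35S:rMYB83 (SE 0.24, adjusted p = 0.292). Without both libraries GLN2 was higher than in Col-0 by 0.51 in 35S:miR858 (adjusted p = 0.00602) and by 0.46 in 35S:rMYB83 (adjusted p = 0.0229). With the green marker sum as a covariate neither passed, at 0.26 in 35S:miR858 (adjusted p = 0.145) and 0.21 in 35S:rMYB83 (adjusted p = 0.318). Of the 17 alternatives, 1 called GLN2 in 35S:miR858 and 2 called it in 35S:rMYB83.

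GLT1 (AT5G53460, chromosome 5 from 21700187 to 21710296, plus strand), the NADH-dependent glutamate synthase, had 1244, 1361 and 1252 CPM in 35S:miR858 roots, 1566, 1855 and 1388 CPM in 35S:rMYB83 and 1082, 795 and 1080 CPM in Col-0. The 3 groups did not overlap, with 35S:rMYB83 highest and Col-0 lowest. GLT1 rose by 0.70 in 35S:rMYB83 (SE 0.15, adjusted p = 0.0107), and every alternative passed the test, with a largest adjusted p of 0.0403. In 35S:miR858 its log2 difference was 0.38 (SE 0.15, adjusted p = 0.0853), which DESeq2 called (0.40, adjusted p = 0.0355), and the difference between 35S:rMYB83 and 35S:miR858 was 0.32 (SE 0.15, adjusted p = 0.295). The end of GLT1 overlaps the neighbouring gene AT5G53470 on the same strand by 127 exon bases, 1.67% of its exon length.

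Per kilobase of exon the order of levels differed between the groups. In 35S:miR858 the highest was GLT1 (169 ± 8.54 CPM per kilobase), followed by GLN1;2 (138 ± 13.8) and GLN1;1 (129 ± 9.45), and GLN1;2 and GLN1;1 overlapped within their SD. In 35S:rMYB83 the highest was GLN1;2 (409 ± 78.8), followed by GLT1 (210.2 ± 30.9) and NIA2 (158 ± 31.5), of which GLT1 and NIA2 overlapped. In Col-0 GLN1;2 (471 ± 88.1) and GLN1;1 (449 ± 167) were highest and overlapped, followed by NIA2 (180 ± 15.4), GLN1;4 (141 ± 66.2) and GLT1 (129 ± 21.6). GLN1;4 was the lowest of the 10 in both overexpression lines, with 3.56 ± 1.18 for 35S:miR858 and 4.12 ± 0.711 for 35S:rMYB83 (all SD, n = 3).

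ASN1 (AT3G47340, chromosome 3 from 17437840 to 17441431, minus strand), the asparagine synthetase that is induced in darkness and known also as DIN6, had 27.7, 42.4 and 34.8 CPM in 35S:miR858 roots, 12.5, 17.7 and 31.2 CPM in 35S:rMYB83 and 29.0, 13.0 and 25.1 CPM in Col-0. All groups overlapped. Its log2 differences were 0.65 in 35S:miR858 (SE 0.35, adjusted p = 0.209), -0.10 in 35S:rMYB83 (SE 0.35, adjusted p = 0.88) and -0.75 between 35S:rMYB83 and 35S:miR858 (SE 0.35, adjusted p = 0.302). ASN1 shares 11 exon bases with AT3G47341 on the opposite strand, and whether counting used the strand is not stated.

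Other genes known to respond to darkness and sugar starvation were each tested in the same fit as ASN1. Of 10 such genes, 9 rose and 1 fell in 35S:miR858, with a median log2 fold change of 1.67. In 35S:rMYB83, 6 rose and 1 fell, with a median of 1.22. Of all tested genes 25.1% passed for 35S:miR858 (11.6% higher, 13.5% lower) and 16.4% for 35S:rMYB83 (6.7% higher, 9.73% lower). The medians over all tested genes were -0.02 in 35S:miR858 and 0.01 in 35S:rMYB83. DIN10, a raffinose synthase-like protein, rose by 2.2 in 35S:miR858 (SE 0.24, adjusted p = 0.000212) and by 1.40 in 35S:rMYB83 (SE 0.23, adjusted p = 0.00344). DIN3 and MCCA, which break down branched-chain amino acids, rose by 2.1 each in 35S:miR858 (adjusted p = 0.00051 and 0.000636) and by 1.27 and 1.47 in 35S:rMYB83 (adjusted p = 0.0103 and 0.00624). PRODH1, which oxidises proline, rose by 1.03 in 35S:miR858 (adjusted p = 0.000944) and by 0.68 in 35S:rMYB83 (adjusted p = 0.0121). The gene that fell in both lines was DIN2, a beta-glucosidase, at -1.46 in 35S:miR858 and -1.31 in 35S:rMYB83, named after its value was seen. The count of 7 in 35S:rMYB83 lay between 4 and 8 over the alternatives, and was 4 without 35S:rMYB83 replicate 3.

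**Figure D4:**
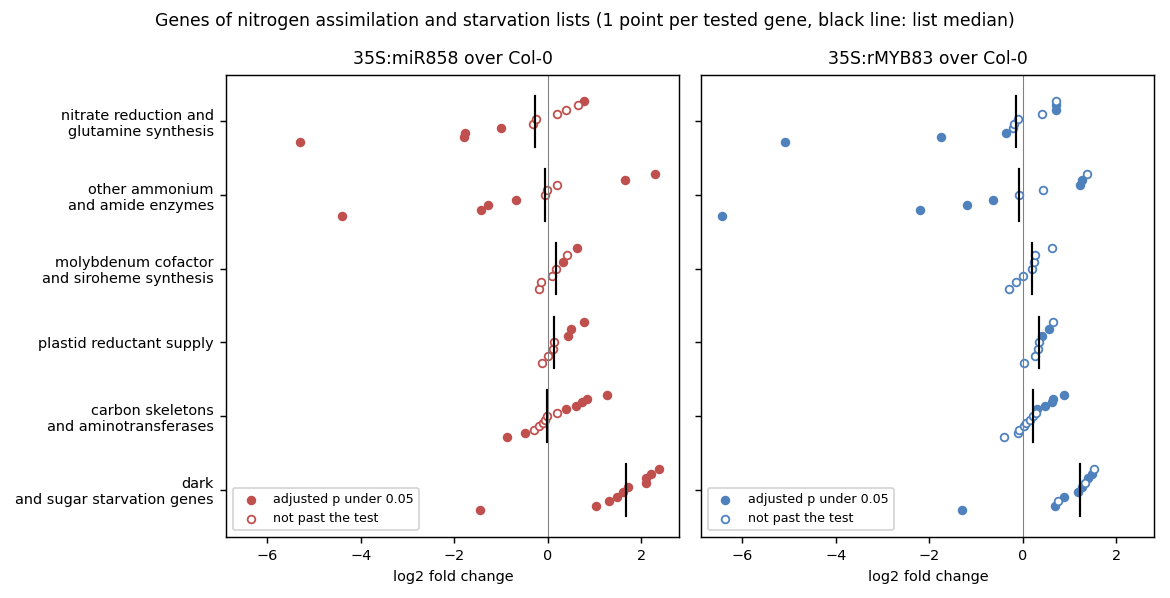
Log2 fold change over Col-0 (horizontal axes) of every tested gene in the 10 enzyme genes and 5 related lists, for 35S:miR858 on the left and 35S:rMYB83 on the right; filled points passed the test and black lines are list medians. The medians of the darkness and starvation genes lie at 1.67 in 35S:miR858 and 1.22 in 35S:rMYB83, and those of the 10 enzyme genes at -0.29 in 35S:miR858 and -0.15 in 35S:rMYB83.

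Of 9 tested genes for other ammonium and amide enzymes, 2 rose and 4 fell in each line, where 25.1% of all tested genes passed for 35S:miR858 and 16.4% for 35S:rMYB83. The mitochondrial glutamate dehydrogenases that rose were GDH1 and GDH2, which release or bind ammonium at glutamate. GDH1 had 78.4, 125 and 145 CPM in 35S:miR858 roots, 50.5, 52.1 and 64.1 CPM in 35S:rMYB83 and 20.7, 22.1 and 28.8 CPM in Col-0. It rose by 2.29 in 35S:miR858 (SE 0.22, adjusted p = 0.000133) and by 1.23 in 35S:rMYB83 (SE 0.22, adjusted p = 0.00522). GDH2 rose by 1.64 in 35S:miR858 (SE 0.17, adjusted p = 0.000175) and by 1.27 in 35S:rMYB83 (SE 0.17, adjusted p = 0.00121). The third gene of this family, GDH3, moved the other way, with 4, 5 and 6 counts in 35S:miR858, 0, 1 and 2 counts in 35S:rMYB83 and 70, 213 and 109 counts in Col-0. It fell in 35S:miR858 to a level 21.5 times lower than in Col-0 (95% counting interval 12.9 to 38.7, adjusted p = 0.00027), and in 35S:rMYB83, on 3 counts in all, to a level 94.0 times lower (31.9 to 458, adjusted p = 0.000252). These intervals cover counting error only and leave out the spread between libraries. GLU2, a ferredoxin-dependent glutamate synthase, fell by 1.27 in 35S:miR858 (SE 0.19, adjusted p = 0.00113) and by 1.19 in 35S:rMYB83 (SE 0.19, adjusted p = 0.00253). ASN3, another asparagine synthetase, stood at -0.69 in 35S:miR858 (adjusted p = 0.00767) and -0.65 in 35S:rMYB83 (adjusted p = 0.0155). ASPGB1, with a mean of 9.62 CPM in Col-0, stood at -1.42 (adjusted p = 0.048) and -2.21 (adjusted p = 0.0151) in the same order. ASN3 and ASPGB1 were named after their values were seen.

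Among 13 genes that supply carbon skeletons or pass on amino groups, 5 rose and 2 fell in 35S:miR858. In 35S:rMYB83, 5 rose and none fell, and the count lay between 2 and 5 over the alternatives. Of all tested genes 25.1% passed for 35S:miR858 (11.6% higher, 13.5% lower) and 16.4% for 35S:rMYB83 (6.7% higher, 9.73% lower). The 2 that fell in 35S:miR858 were PPC2 (-0.88, adjusted p = 0.0234) and DIT1 (-0.48, adjusted p = 0.0121), named after their values were seen. ICDH, the cytosolic isocitrate dehydrogenase that yields the carbon acceptor of glutamate synthase, rose by 0.84 in 35S:miR858 (adjusted p = 0.00048) and by 0.61 in 35S:rMYB83 (adjusted p = 0.00389). The aspartate aminotransferases ASP1 and ASP3 rose by 0.74 and 0.60 in 35S:miR858 (adjusted p = 0.00063 and 0.00588) and by 0.64 and 0.48 in 35S:rMYB83 (adjusted p = 0.00226 and 0.0249). The alanine aminotransferase ALAAT2 rose by 1.25 in 35S:miR858 (adjusted p = 0.00332) and by 0.87 in 35S:rMYB83 (adjusted p = 0.0287). The list medians were -0.03 in 35S:miR858 and 0.21 in 35S:rMYB83, against -0.02 and 0.01 over all tested genes in those comparisons.

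Within the 10 genes, the log2 CPM values of GLN1;1 and GLN1;4 followed each other most closely over the 9 libraries (Pearson r = 0.972), then those of NIA2 and GLN1;2 (0.893), GLN1;1 and GLN1;3 (0.876) and NIR1 and GLT1 (0.826). Other pairs ran in opposite directions, most strongly NIR1 and GLN1;1 (-0.901), GLN1;3 and GLT1 (-0.877) and NIR1 and GLN1;4 (-0.835). These are descriptions over 9 libraries that share their group differences. Of 15783 genes with a mean of at least 5 CPM, those most like GLN1;4 were AT2G43500, a plant regulator of the RWP-RK family named NLP8 (r = 0.994), and SIP1 (0.993). Those most like GLN1;1 were the methylenetetrahydrofolate reductase MTHFR2 (0.994) and the urea-proton symporter DUR3 (0.990). For GLN1;2 they were the methyltransferase AT5G38020 (0.986) and the oxygenase AT1G14120 (0.985), and for NIA2 the hydrolase AT5G45170 (0.980) and the phosphoribosyltransferase AT2G35390 (0.975). For NIR1 they were AT3G25790, a myb-like transcription factor (0.968), and the casein kinase subunit CKA2 (0.958). For GLT1 they were the GDSL lipase-like MVP1 (0.980) and the F-box protein FKF1 (0.956), and for GLN1;3 the pectin lyase-like AT3G62110 (0.963) and AT4G11230 (0.959).

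GLN1;1 and GLN1;4 fell together in both lines, so the 250 bases upstream of each annotated start are printed. They run 5′ to 3′ on the gene's strand (RefSeq, TAIR10.1). The window of GLN1;1 is chr5:14935886-14936135 and that of GLN1;4 is chr5:5424750-5424999, both on the minus strand.
GLN1;1 upstream: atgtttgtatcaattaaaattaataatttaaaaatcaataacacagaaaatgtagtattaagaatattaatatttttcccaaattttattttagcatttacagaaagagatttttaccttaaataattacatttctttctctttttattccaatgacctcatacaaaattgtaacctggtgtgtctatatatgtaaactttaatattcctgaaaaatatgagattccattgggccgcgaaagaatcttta
GLN1;4 upstream: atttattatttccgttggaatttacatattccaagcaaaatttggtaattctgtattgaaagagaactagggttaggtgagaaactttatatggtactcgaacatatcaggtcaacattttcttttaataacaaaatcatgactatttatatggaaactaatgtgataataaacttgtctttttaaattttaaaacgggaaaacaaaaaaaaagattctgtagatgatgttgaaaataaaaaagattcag
Searched on both strands, neither window held any of 4 motifs: GACNCTT, part of the nitrate-responsive element, ACTCAT, a bZIP-type site, CACGTG, the G-box, and AAAATATCT, the evening element. The windows are therefore printed without capitals. Of 27443 such windows over the genome, 7.18% held GACNCTT, 12.3% ACTCAT, 6.49% CACGTG and 2.36% AAAATATCT. Among the other 8 genes, ACTCAT was in the windows of NIA1 and GLN1;3 and CACGTG in that of ASN1. No match says only that these letters are not in this window.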

How the data were processed

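Processed counts from 9 Arabidopsis root mRNA libraries were used, 3 each of 35S:miR858, 35S:rMYB83 and Col-0. Per the submitters' processing notes the reads passed through FastQC, Trimmomatic, TopHat2 2.0.14 and HTSeq with TAIR10. Their settings, the strand mode and the annotation release are not stated there. Each deposited file lists 1 library's HTSeq counts, whole numbers that the authors did not normalize. HTSeq's summary lines were left out (reads outside genes 3.62% to 5.96%, ambiguous reads 1.72% to 2.08%). Reads that align to several places are not assigned by HTSeq's default.

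The test was edgeR 4.0.16 in R 4.3.3 (filterByExpr by genotype, TMM factors 0.93 to 1.117, quasi-likelihood F test, 1 fit of 9 libraries with 6 residual degrees of freedom). The threshold was 0.05 on p-values adjusted by Benjamini-Hochberg over 19496 genes. SEs were taken as the absolute log2 fold change divided by the root of F. Replicates differed by at least 6.49 times counting noise (chi-square per degree of freedom), so none was merged. The fit was tested on simulated data. Alternatives were RLE factors, library totals, DESeq2 1.42.0, no count filter, only the 2 groups compared, a replicate block, the green marker sum as covariate, both green-rich libraries left out, and each library left out. Same-numbered libraries of 35S:rMYB83 and Col-0 correlated at 0.548, 0.241 and 0.141 in their deviations from group means. The 0.548 belongs to the replicate 1 libraries, both rich in green markers. Col-0 replicate 3 and 35S:rMYB83 replicate 2, which differ in number, correlated at 0.464. No label says what a number marks, so these values do not establish a pairing. The main fit was unpaired, and the replicate block was an alternative only. The replicate block was fitted over all 9 libraries. Likeness used log2 CPM with a prior count of 2.

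Names, coordinates, exon lengths and sequences came from RefSeq's TAIR10.1 by locus, read with Python 3.11.15 and Biopython 1.88. Coding sequences were compared in place of proteins. Named genes were the 10 enzyme genes in every comparison, per related list and comparison with Col-0 up to 4 genes with the smallest adjusted p past the threshold (else the 1 with the smallest p), and the 2 genes most correlated with each enzyme gene that passed. The 10 genes and all lists were chosen with earlier results of these data known. Alternatives for the related lists were added after seeing the data.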

Additional observations from a re-analysis of the deposited data

How the results depend on the processing

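In 35S:miR858 the calls of NIA2, GLN1;1, GLN1;2 and GLN1;4 held in all 17 alternatives, as did those of GLN1;1, GLN1;4 and GLT1 in 35S:rMYB83 and of GLN1;2 between the lines. The number of the 10 genes called ranged, with 1 library left out, from 4 to 5 in 35S:miR858, 3 to 7 in 35S:rMYB83 and 1 to 3 between 35S:rMYB83 and 35S:miR858. It was 3 in 35S:rMYB83 when only its libraries and Col-0 entered the fit. Over all genes the counts ranged from 3468 to 5146, 2087 to 3791 and 322 to 992 in the same order, and DESeq2 called 1268 between the lines, against 789 with edgeR. Scaled to library totals, 1355 genes were higher and 4148 lower in 35S:miR858 (median log2 fold change -0.16), and 842 higher and 2771 lower in 35S:rMYB83 (-0.10), against 2271 and 2629, and 1306 and 1897, with TMM. Between the lines, library totals gave 597 higher and 257 lower, and leaving out replicate 1 of 35S:rMYB83 and of Col-0 together gave 459 and 179, against 488 and 301. As a share of raw counts GLN1;1 made up 34.67% in 35S:miR858. In these alternatives signs turned for values that had not passed with all libraries, and for no call. With replicate 1 of 35S:rMYB83 and of Col-0 both left out, NIA1 was 0.21 in 35S:miR858, ASN1 0.40 in 35S:rMYB83, and NIR1 0.0624 and GLN2 -0.0542 between the lines, and GLN2 was -0.0541 with the green marker covariate. With 1 library left out, NIA1 in 35S:miR858 ran from -0.56 to 0.20, ASN1 in 35S:rMYB83 from -0.56 to 0.14, and between the lines NIR1 from -0.18 to 0.0628, GLN1;1 from -0.0111 to 0.0948, GLN1;4 from -0.039 to 0.36 and GLN2 from -0.0608 to 0.32. The cause was not tested.

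Same-numbered libraries that include 35S:miR858 correlated between -0.26 and 0.31 in their deviations from group means. Their numbers were not taken to pair them either. With the replicate block 5 of the 10 genes passed in 35S:miR858, 4 in 35S:rMYB83 (NIR1 missed, adjusted p = 0.0743) and 2 between the lines, and over all genes 5002, 3315 and 924 passed. It ended no other call among the 10 genes. Depth limits GDH3 and GLN1;4, which rest on few counts in the overexpression lines.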
